A study of Mus musculus with 6 samples.

Results

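The interferon regulatory factors Irf1, Irf2, Irf3, Irf4, Irf5, Irf7, Irf8 and Irf9 were followed in mouse T cell acute lymphoblastic leukemia (T-ALL). These 8 genes, of 19057 named on the bead array, were found through the 15 probes, of 45281, that carry their symbols in the platform annotation. Irf1 had 5 probes, Irf3 had 3, Irf9 had 2 and the other 5 genes had 1 each. RNA came from 3 Klf4-deficient and 3 control samples, 1 Illumina bead array per sample. In both groups the leukemia had been induced by NOTCH1 and the mice were male, and bone marrow cells positive for GFP, CD4 and CD8 were sorted 4 weeks after transplantation. Not given in the sources used here are the strain, the age, the way Klf4 was deleted and whether a group's samples are separate animals. The p-values therefore measure a spread between samples that may be technical.

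Interferon regulatory factors share an N-terminal DNA-binding domain that recognises repeats of GAAA, the core of the interferon-stimulated response element (ISRE). Irf3, Irf5 and Irf7 are activated by kinases downstream of nucleic acid sensors and switch on interferon genes. Irf9 joins STAT proteins in the complex ISGF3, which carries the type I interferon signal to its target genes. Irf1 and Irf2 bind the same element, Irf1 as an activator and Irf2 mostly as its antagonist. Irf4 is induced by antigen receptor signals in lymphocytes, and Irf8 directs monocyte, dendritic and B cell development. In mice, Irf1 is needed for the normal maturation of CD8 T cells.

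Promoter sequence was taken from RefSeq (build GRCm38.p6) as the 250 bases before each annotated start, and all 8 genes were found there, in 11 windows. Both strands were searched for the ISRE core, written as GAAA, any 2 bases and GAAA, and for TTCNNNGAA, a STAT site that reads the same on both strands. The first of 2 Irf9 windows (chr14:55603735-55603984, + strand) and the Irf7 window (chr7:141266425-141266674, - strand) are shown because these genes had some of the largest differences below. Neither, nor the second Irf9 window, holds a match to either motif, which says only that these letters are absent from these windows.
Irf9: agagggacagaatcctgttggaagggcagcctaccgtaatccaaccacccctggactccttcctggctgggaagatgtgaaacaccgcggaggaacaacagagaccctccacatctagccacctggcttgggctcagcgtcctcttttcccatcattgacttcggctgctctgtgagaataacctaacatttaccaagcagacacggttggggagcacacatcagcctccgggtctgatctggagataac
Irf7: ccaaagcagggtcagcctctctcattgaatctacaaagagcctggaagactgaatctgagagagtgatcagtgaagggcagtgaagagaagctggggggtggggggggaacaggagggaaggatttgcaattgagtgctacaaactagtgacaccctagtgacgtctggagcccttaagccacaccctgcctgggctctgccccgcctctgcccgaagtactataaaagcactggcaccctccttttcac
The matches in members are shown next with their flanks, the matching bases in capitals. The Irf1 match (chr11:53769914-53769943, + strand) begins 90 bases before the start. The Irf2 match to the ISRE core (chr8:46739495-46739524, + strand) begins 241 bases before the start. A STAT site of Irf2 (chr8:46739511-46739540, + strand) begins 224 bases before the start and does not overlap the ISRE core. Irf8 has STAT sites 171 bases (chr8:120736177-120736206, + strand) and 153 bases (chr8:120736195-120736224, + strand) before its start.
Irf1, STAT site: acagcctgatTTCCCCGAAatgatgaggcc
Irf2, ISRE core: tggggaagtGAAAATGAAAttgacttttcc
Irf2, STAT site: aaattgacttTTCCGAGAAatgatgaaagc
Irf8, first STAT site: caaaagtgatTTCTCGGAAagagagcgctt
Irf8, second STAT site: aagagagcgcTTCAGAGAAggcggatttgg
Of all 32851 windows, 2.98% held the ISRE core and 7.02% held TTCNNNGAA. Of the 11 IRF windows, 1 held the ISRE core and 3 held TTCNNNGAA. Not every gene of the lists below had a window. Among 18 windows of 16 of the 22 measured genes listed below as Irf1 targets, 6 (33.3%) held the ISRE core. Among 27 windows of 23 of the 32 measured genes listed below as ISGF3 targets, 9 (33.3%) held it. Those of Isg15 (chr4:156200871-156200900, - strand), Rsad2 (chr12:26456553-26456582, - strand) and Ifit3 (chr19:34583363-34583392, + strand), picked for their match after values had been seen, show the ISRE core. Binding of Irf9 or another IRF protein to them was not measured. In Isg15 the match shown overlaps another on each side, and in Rsad2 and Ifit3 the match lies on the opposite strand, so it reads as TTTC repeats.
Isg15: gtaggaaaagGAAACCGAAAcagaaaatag
Rsad2: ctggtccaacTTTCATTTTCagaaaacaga
Ifit3: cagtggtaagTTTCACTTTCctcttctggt

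The mean probe signal was 359 to 432 intensity units on the Klf4-deficient arrays and 417 to 445 on the control arrays, Klf4-deficient array 3 being the dimmest. Normalized arrays correlated at 0.983 to 0.993 across probes. Each array's background limit, between 21.8 and 23.7 units, was 3 SDs of its negative values mirrored around 0, and probes over it count as above background. Of the sorted cells' defining markers, Cd8b1 gave 25892 to 26627 in Klf4-deficient and 28518 to 29424 in control arrays with its brightest probe. Cd4 gave 1052 to 1415 in Klf4-deficient and 1044 to 1477 in control arrays. The brighter Cd8a probe was above background on 1 of 3 Klf4-deficient and 3 of 3 control arrays, and the other Cd8a probe on none of the 6. For Klf4 itself, the brightest probe gave 46.0 to 85.4 in the arrays labelled Klf4-deficient and 18.4 to 44.0 in the controls (log2 difference 1.03 ± 0.32 SE, adjusted p = 0.738 from limma). Its other 2 probes were under the limit on all 6 arrays. Where these probes lie relative to the deleted part is unknown, so they may check nothing about the deletion.

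Of the 15 IRF probes, 13 had a mean difference (Klf4-deficient minus control) above 0 and 2 below 0, with a median log2 difference of 0.18. Over the brightest probe of each of 19057 genes, 8654 differences were above 0, 8550 below 0 and 1853 at 0, with a median of 0. Probes of the same gene are not independent, and 5 of the 15 belong to Irf1. In limma, 0 IRF probes had an adjusted p under 0.05 in either direction, where 0.00221% of all probes passed as higher and 0.00221% as lower. At an unadjusted p under 0.05, 3 IRF probes were higher and 0 lower, where 2.64% of all probes were higher and 3.4% lower. The 3 were both Irf9 probes and the Irf7 probe. The groups did not overlap for 5 probes, with the Klf4-deficient arrays higher in each, against a background of 4.29% of all probes higher and 5.26% lower. These were both Irf9 probes, Irf7, Irf5 and Irf3 probe 2. Of the 13 IRF probes above background on all 6 arrays, 4 had groups apart with the Klf4-deficient arrays higher, where 6.78% of the 15173 such probes did so. On the deposited signal, with no normalization between arrays, the 2 Irf9 probes were apart as higher, where 2.44% of probes above background on all 6 arrays were, and Irf3 probe 1 was apart as lower, where 12.7% of those probes were. Leaving out Klf4-deficient array 1 or 3 moved the count of probes apart as higher to 8 or 10, where 12.8% and 13.1% of probes above background on all 6 arrays were apart as higher. Log2 differences of probes of the same gene ran from 0.64 to 0.72 for Irf9, from -0.0030 to 0.13 for Irf3 and from 0.08 to 0.36 for Irf1.

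**Figure D1:**
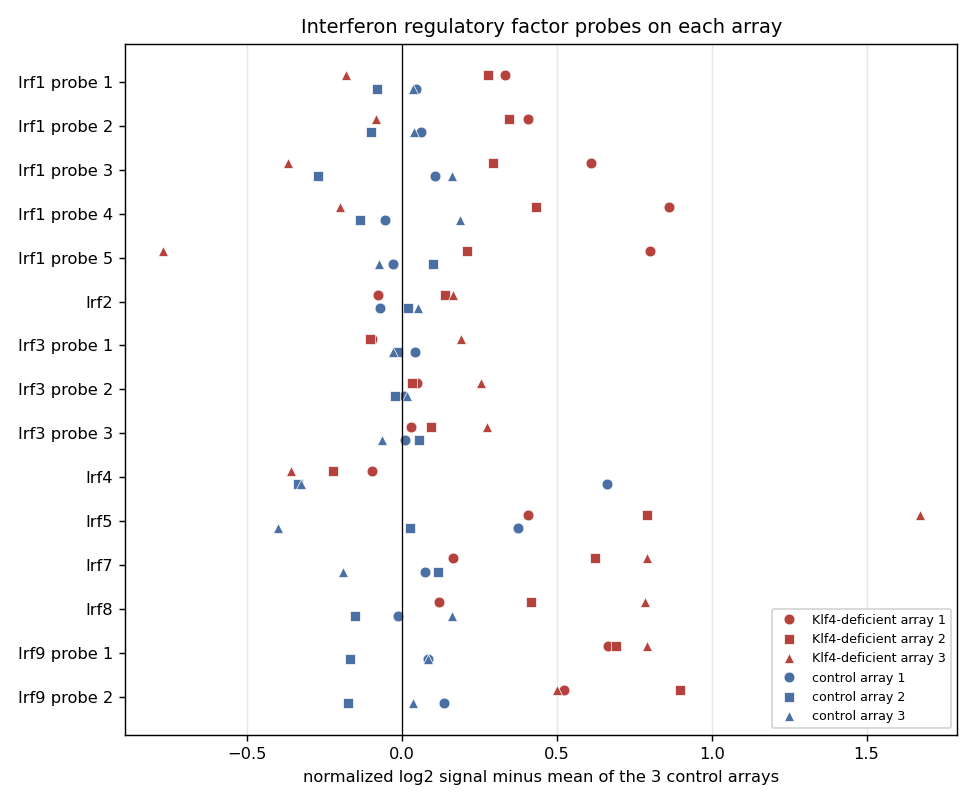
Normalized log2 signal of each of the 15 IRF probes on each array, minus the mean of the 3 control arrays, with red marks above each row's centre for Klf4-deficient and blue marks below it for control arrays. Both Irf9 probes lie between 0.50 and 0.90 on all 3 Klf4-deficient arrays, Irf7, Irf8 and Irf5 spread from 0.12 to 1.67 there, and Irf1 lies low on Klf4-deficient array 3.

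Irf9, the DNA-binding subunit of ISGF3, was the member with the smallest p. Probe 1, the brighter, gave 531, 550.1 and 493 units on Klf4-deficient arrays 1, 2 and 3, against 374, 283 and 365 on control arrays 1, 2 and 3. Each Klf4-deficient array lay above each control array, by at least the gap between 493 and 374. The group means were 525 ± 29.3 in Klf4-deficient and 340.4 ± 50.2 in control arrays (SD, n = 3 each). The log2 difference was 0.72 ± 0.09 (SE), with a 95% interval from 0.49 to 0.94, which is 1.64-fold on the log2(signal + 16) scale. Ranked by p it was probe 74 of 45281, and its adjusted p was 0.329 in limma. Probe 2 gave 177, 241 and 154 units on the Klf4-deficient arrays, against 140.4, 99.2 and 127 on the controls. Its groups were apart as well, with Klf4-deficient array 2 the highest. Its log2 difference was 0.64 ± 0.15 (adjusted p = 0.597 from limma), and the mean of both probes differed by 0.68 ± 0.10 (adjusted p = 0.328 from limma). On Klf4-deficient array 1 alone, probe 1 lay 0.66 above the control mean, against 0.69 and 0.79 on arrays 2 and 3.

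Irf7, Irf5 and Irf3 act between the sensors of foreign nucleic acid and the interferon genes, and Irf7 is itself a known target of ISGF3. Irf7 was dim, at 63.3, 95.9 and 97.9 units on Klf4-deficient arrays 1, 2 and 3, against 63.8, 59.7 and 48.4 on the controls. Klf4-deficient array 1 did not exceed control array 1 on the deposited scale and lay just above the controls after normalization (6.33 against 6.24, 6.28 and 5.98 in log2 units). The log2 difference of Irf7 was 0.53 ± 0.20 (adjusted p = 0.822 from limma), and 0.40 without Klf4-deficient array 3. Irf5, which is prominent in monocytes and macrophages, gave 48.7, 71.7 and 127 units on the Klf4-deficient arrays, against 51.4, 34.3 and 22.8 on the controls. Control array 3 was under the background limit for Irf5, and Klf4-deficient array 3 stood highest. Its log2 difference was 0.96 ± 0.40 (adjusted p = 0.824 from limma), with a 95% interval from -0.10 to 2.02, and was 0.61 without Klf4-deficient array 3 and 0.41 on Klf4-deficient array 1 alone. Irf3, present in most cell types, gave 5810, 5908 and 5830 units with probe 1 on the Klf4-deficient arrays, against 6497, 6032 and 6359 on the controls. On this scale the Klf4-deficient arrays were all lower, whereas after normalization the groups overlapped. The log2 differences of Irf3 probes 1, 2 and 3 were -0.0030 ± 0.09, 0.11 ± 0.07 and 0.13 ± 0.08 (SE), with 95% intervals that stayed between -0.25 and 0.33. Klf4-deficient array 3 was the highest of the 6 arrays for each of the 3 Irf3 probes after normalization, and with no normalization the difference of probe 2 was -0.0022. Without Klf4-deficient array 1 the difference of Irf3 probe 1 was 0.04, without array 2 it was 0.05, and without control array 1 it was 0.02.

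**Figure D2:**
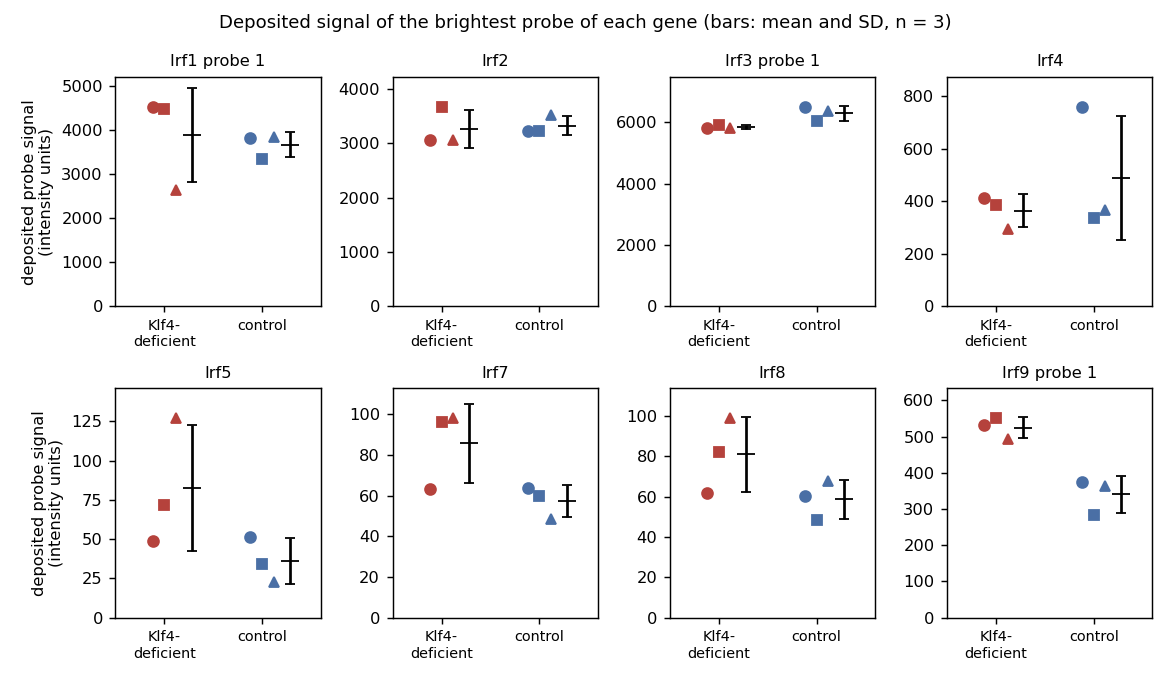
Deposited signal, in intensity units and before any normalization between arrays, for the brightest probe of each IRF gene, with circles, squares and triangles for arrays 1, 2 and 3 of a group (Klf4-deficient left, control right) and the mean and SD of 3 arrays. Among these 8 probes the groups are apart for Irf9 (493 to 550.1 against 283 to 374) and, as lower, for Irf3.

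Irf1, the activator induced by interferon gamma, split the Klf4-deficient arrays. Probe 1 gave 4513, 4470 and 2640 units on Klf4-deficient arrays 1, 2 and 3, against 3818, 3332 and 3837 on the controls. Arrays 1 and 2 lay above every control and array 3 below every control. The same order held over the probes: Klf4-deficient array 1 was highest and array 2 second in 5 of 5 Irf1 probes, and array 3 was lowest in 4 of 5. These probes share their RNA, so they are not replicates of the condition. The log2 difference of probe 1 was 0.14 ± 0.16 (SE, adjusted p = 0.867 from limma), with 0.30 without Klf4-deficient array 3 (adjusted p = 0.542 from limma), 0.047 without array 1 and 0.076 without array 2. Probe 4 differed by 0.36 ± 0.30 (adjusted p = 0.824), with 0.65 without Klf4-deficient array 3 and 0.12 without array 1, and probe 5, above background on 2 of 3 Klf4-deficient and 1 of 3 control arrays, by 0.08 ± 0.44 (adjusted p = 1). Without Klf4-deficient array 1, probe 3 had a difference of -0.04, against 0.18 ± 0.29 with all arrays, and probe 5 had -0.28. Irf2, the counterpart of Irf1, gave 3069, 3670.1 and 3066 units on the Klf4-deficient arrays, against 3224, 3228 and 3530.5 on the controls. The groups overlapped, and the log2 difference was 0.08 ± 0.08 with a 95% interval from -0.13 to 0.28. It lay below 0 with arrays centred on their median (-0.0044) and with no normalization (-0.03).

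Irf4 and Irf8 are the lymphoid and myeloid members that bind DNA with partners such as PU.1, the product of Spi1. Irf4 gave 414, 384 and 293 units on the Klf4-deficient arrays, against 758, 337 and 366 on the controls. Control array 1 stood apart from the other 5 arrays, which lay between 293 and 414. The log2 difference was -0.23 ± 0.31 (adjusted p = 0.939 from limma) and turned to 0.11 without control array 1. Irf8 gave 62.0, 82.2 and 98.9 units on the Klf4-deficient arrays, against 60.2, 48.4 and 67.8 on the controls. Klf4-deficient array 1 lay within the controls, and arrays 2 and 3 above them. Its log2 difference was 0.44 ± 0.20 (adjusted p = 0.824 from limma), 0.27 without Klf4-deficient array 3 and 0.12 on Klf4-deficient array 1 alone.

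Markers of other marrow cells moved with part of these values. The 20 measured markers of monocytes, macrophages and dendritic cells had medians of 0.15, 0.60 and 1.28 on Klf4-deficient arrays 1, 2 and 3, against -0.0058 to 0.02 on the controls, in log2 units relative to the control mean. Their summed signal was 16105 to 33918 on the Klf4-deficient and 14052 to 18697 on the control arrays. Most of this sum was Lyz1, chosen after its values were seen. Lyz1 gave 10725 to 21712 units on the Klf4-deficient and 10050 to 13343 on the control arrays. Cybb, Siglec1 and Itgax stayed under the limit throughout. Csf1r, the receptor for macrophage colony-stimulating factor, differed by 1.27 ± 0.34 and Mrc1, the mannose receptor, by 0.94 ± 0.27 (SE). The 10 erythroid markers had medians of 0.21, 1.16 and 2.11 on the Klf4-deficient arrays, against -0.42 to 0.22 on the controls. Their summed signal, mostly from Hba-a1 and Hbb-bt, was 76546 to 94567 on the Klf4-deficient and 64172 to 76244 on the control arrays. All 10 were above the limit on at least 1 array. Irf7, Irf5 and Irf8 had the same order over the Klf4-deficient arrays as these lists, with 0.16, 0.62 and 0.79 for Irf7, with 0.41, 0.79 and 1.67 for Irf5, and with 0.12, 0.42 and 0.78 for Irf8. What part such cells have in these 3 differences was not tested. On Klf4-deficient array 1, Irf9 probe 1 was 0.66 and probe 2 was 0.52 above the control mean. There the monocyte list lay at 0.15, the erythroid list at 0.21 and the NK list at 0.30. The NK and cytotoxic list lay at 0.30, 0 and 0.58 on Klf4-deficient arrays 1, 2 and 3, and at 0 to 0.02 on the controls, with Eomes, Klrk1, Ncr1 and Gzmb under the limit on all arrays. Of its 11 genes, 4 were apart as higher (Klrd1, Ctsw, Ccl5 and Nkg7) and 0 as lower, beside 5.48% and 6.09% of all genes. In this list 0 genes had an adjusted p under 0.05 in limma. Prf1, the pore-forming protein of cytotoxic cells, differed by -0.18 ± 0.24 and Il2rb by -0.22 ± 0.17 (SE), both chosen after their values were seen. Il2rb was above background on 0 of 3 Klf4-deficient and 1 of 3 control arrays, so its values lie near the limit. Ccl5 gave 547, 805.5 and 397 units on the Klf4-deficient arrays, against 138, 253 and 316 on the controls. Klrd1, an NK receptor subunit, gave 29.1, 82.9 and 66.7 units on the Klf4-deficient arrays, against 17.1, 15 and 9.70 on the controls. Ctsw, a protease of cytotoxic cells, gave 141, 206 and 190 units on the Klf4-deficient arrays, against 70.5, 104 and 107 on the controls. On Klf4-deficient array 1, Ccl5 lay at 1.26, Csf1r at 0.82, Klrd1 at 0.66, Ctsw at 0.57, Mrc1 at 0.44 and Nkg7 at 0.30. Prf1 lay at -0.40 there and Il2rb at -0.29, all relative to the control mean. What part cytotoxic or other marrow cells have in the Irf9 difference was not tested. The plasmacytoid dendritic list, whose cells are rich in Irf7 and Irf8, lay at -0.18 to 0.03 in Klf4-deficient and -0.04 to 0.05 in control arrays, with Klk1, Tlr9 and Ccr9 under the limit on all arrays. The B and plasma cell list lay at 0.02 to 0.32 in Klf4-deficient and -0.08 to 0.0012 in control arrays, with Pax5 and Jchain under the limit on all arrays. The neutrophil list lay at -0.19, -0.06 and 1.20 on Klf4-deficient arrays 1, 2 and 3, and at -0.25 to 0.31 on the controls. The 12 markers of the sorted T cells lay at -0.08 to -0.03 in Klf4-deficient and -0.06 to 0.03 in control arrays. In bulk RNA of sorted cells, fewer cells of a type and less RNA per cell cannot be told apart.

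**Figure D3:**
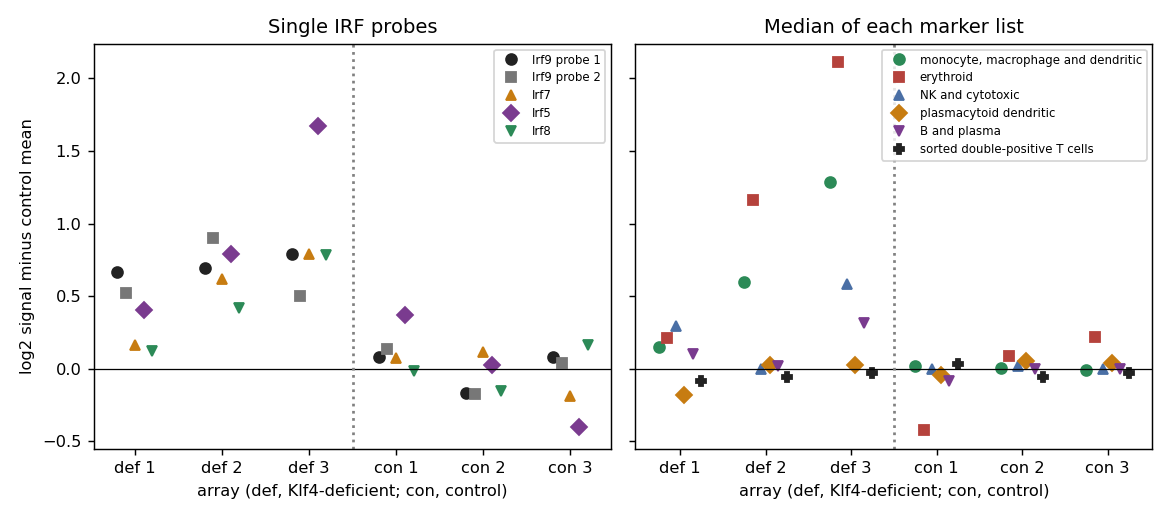
Left, log2 signal of 5 IRF probes on each array minus the control mean. Right, the median of each marker list except the neutrophil list, on the same scale. Klf4-deficient arrays lie left of the dotted line and control arrays right of it. Among the Klf4-deficient arrays, Irf5, Irf7 and Irf8 and the monocyte and erythroid lists are lowest on array 1 and highest on array 3. Irf9 probe 1 spans 0.66 to 0.79 and probe 2 spans 0.50 to 0.90 on the Klf4-deficient arrays.

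Genes that carry the interferon signal to Irf9 had differences on both sides of 0. Over 13 measured receptors, JAK kinases, STAT proteins and their brakes the median log2 difference was -0.05 (4 above 0, 8 below 0 and 1 at 0), beside 0 over all 19057 genes, and was 0 without control array 1. A difference of 0 belongs to genes whose signal was below 0 on every array. Their groups were apart as higher for 2 and as lower for 0, where 5.48% of all genes were higher and 6.09% lower, and 0 had an adjusted p under 0.05 in limma. At an unadjusted p under 0.05, 1 was higher and 0 were lower, where 3.48% of all genes were higher and 4.13% lower. Usp18, an interferon-induced brake on the type I receptor, gave 420.3, 535.5 and 407.5 units on the Klf4-deficient arrays, against 222, 150.2 and 220 on the controls (log2 difference 1.24 ± 0.15 SE, adjusted p = 0.329 from limma). Stat2, a partner of Irf9 within ISGF3, differed by -0.07 ± 0.06, its groups overlapping, and was chosen after its values were seen. Ptpn6, the phosphatase SHP-1, differed by 0.22 ± 0.09, Ptpn2, which dephosphorylates JAK and STAT proteins, by 0.27 ± 0.14, and Ifngr1, the interferon gamma receptor chain, by -0.21 ± 0.15.

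Over 22 measured sensors and kinases upstream of Irf3, Irf5 and Irf7 the median log2 difference was 0.06 (15 above 0, 4 below 0 and 3 at 0), and 0.14 without control array 1, 0.10 without Klf4-deficient array 2 and 0.02 without control array 2. The groups were apart as higher for 3 and as lower for 0, beside 5.48% and 6.09% of all genes. At an unadjusted p under 0.05, 2 were higher and 0 lower, beside 3.48% and 4.13% of all genes, and 0 had an adjusted p under 0.05 in limma. Trim25, a ubiquitin ligase that activates RIG-I, differed by 0.18 ± 0.04 (SE). Dhx58, the RIG-I-like receptor LGP2 and an interferon target, differed by 0.68 ± 0.26, with 96.1, 149.8 and 172 units on the Klf4-deficient and 85.0, 92.1 and 74.9 on the control arrays. Unc93b1, which carries Toll-like receptors to endosomes, differed by 0.70 ± 0.32 and was highest on Klf4-deficient array 3 (431). Slc15a4, a lysosomal transporter needed for Irf5 and Irf7 responses, differed by 0.30 ± 0.15.

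The 14 measured DNA-binding partners and cofactors of IRF proteins had 11 differences above 0 and 3 below 0, with a median of 0.14 (0.08 without Klf4-deficient array 1) and 1 gene apart as higher and 1 as lower, beside 5.48% and 6.09% of all genes. Junb, an AP-1 subunit that pairs with BATF beside Irf4, gave 632, 538 and 548 units on the Klf4-deficient arrays, against 468, 454 and 485 on the controls (log2 difference 0.39 ± 0.09 SE, adjusted p = 0.597 from limma). Ep300, a histone acetyltransferase recruited by Irf3, was lower on all 3 Klf4-deficient arrays, with a difference of -0.28 ± 0.08 (adjusted p = 0.718 from limma). Irf2bp2, a corepressor of Irf2, differed by 0.18 ± 0.09, and the lymphoid factor Ikzf3 by 0.20 ± 0.12. Spi1, chosen after its values were seen, gave 39.0, 68.2 and 137 units on the Klf4-deficient arrays, against 30.8, 54.3 and 38.5 on the controls, with the highest value on Klf4-deficient array 3 as for Irf5 and Irf8.

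Of 32 measured target genes of ISGF3, 26 had a log2 difference above 0, 5 below 0 and 1 at 0, with a median of 0.35. The groups were apart for 18 of the 32 as higher and for 0 as lower, beside 5.48% and 6.09% of all genes, while at an unadjusted p under 0.05 there were 15 higher and 0 lower, beside 3.48% and 4.13% of all genes. In limma, 0 had an adjusted p under 0.05 in limma. The list's median was 0.21, 0.36 and 0.35 on Klf4-deficient arrays 1, 2 and 3, against -0.04 to 0.01 on the controls. Single genes differed in their order over these 3 arrays. Rsad2 lay at 0.69, 1.44 and 2.78 and Dhx58 at 0.21, 0.72 and 1.11, the order of the monocyte and erythroid lists. Usp18 lay at 1.08, 1.39 and 1.26 and Ifi35 at 0.45, 0.47 and 0.22. What part other marrow cells have in the differences of this list was not tested. Usp18, Stat2 and Dhx58, given above, belong to this list too. Adar, an RNA-editing enzyme with an interferon-induced isoform, differed by 0.18 ± 0.03 (SE), Ifi35 by 0.38 ± 0.08 and Mx2, an antiviral GTPase, by 0.56 ± 0.12 (adjusted p of 0.437, 0.587 and 0.587 from limma). Xaf1, Ifit1, Oas1a, Mx1 and Ifih1 did not exceed the background limit on any array. Of the genes whose promoter matches are printed above, Isg15, a ubiquitin-like modifier, gave 479, 738 and 645 units on the Klf4-deficient arrays, against 384, 405.5 and 406 on the controls (log2 difference 0.70 ± 0.20). Rsad2, which encodes viperin, gave 737, 1290.2 and 2683 units, against 406, 390 and 632 on the controls (1.64 ± 0.59). Ifit3 differed by 0.56 ± 0.19. Of the targets whose ISRE match is not printed, Trim30a differed by 0.52 ± 0.18 and Oas3 by 0.58 ± 0.44. Bst2 differed by 0.00055 ± 0.19 and Stat2 by -0.07 ± 0.06. Oas1a and Ifit1 also held the core and were under the limit on all arrays.

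For 22 measured target genes of Irf1 the median was 0.17 (14 above 0, 7 below 0 and 1 at 0), with 6 apart as higher and 1 as lower, beside 5.48% and 6.09% of all genes. On Klf4-deficient arrays 1, 2 and 3 the list lay at 0.02, 0.24 and 0.09, while Irf1 probe 1 lay at 0.33, 0.28 and -0.18. Nlrc5, the transactivator of MHC class I genes, gave 203, 415 and 156 units on the Klf4-deficient arrays, against 67.7, 79.0 and 112 on the controls (1.41 ± 0.37 SE, adjusted p = 0.661 from limma). Gbp3 and Ifi47, interferon-induced GTPases, differed by 0.67 ± 0.17 and 0.34 ± 0.10. Tap2, a subunit of the peptide transporter for MHC class I, was lower, at 2952.5, 3170.5 and 2299 units on the Klf4-deficient arrays, against 3551.5, 3347 and 3568 on the controls (-0.21 ± 0.05, adjusted p = 0.597 from limma). Targets of Irf4 and Irf8 in B, plasma and myeloid cells had a median of 0.28 over 12 genes (10 above 0, 2 below 0), and of 0.12 without Klf4-deficient array 3. Of these, 3 were apart as higher and 1 as lower, beside 5.48% and 6.09% of all genes. The 1 apart as lower was Prdm1, which like Zbtb46 and Cybb was under the limit on every array. The list lay at 0.01, 0.17 and 0.55 on Klf4-deficient arrays 1, 2 and 3, the order of the monocyte markers. Mpeg1, Ctss and Cybb belong to both lists, so the shared order is partly built in. Klf4 itself, described above, belongs to this list, and Ly86, a partner of a Toll-like receptor homologue on B and myeloid cells, differed by 1.10 ± 0.44. Mpeg1, a macrophage pore-forming protein, differed by 0.94 ± 0.41 and Cst3, cystatin C, by 0.25 ± 0.12. At an unadjusted p under 0.05 there were 4 higher and 1 lower of the Irf1 targets, 1 higher and 1 lower of the Irf4 and Irf8 targets, and 1 higher and 1 lower of the partners, beside 3.48% of all genes higher and 4.13% lower, with 0 in all 3 lists at an adjusted p under 0.05 in limma. For the Irf4 and Irf8 targets, the higher gene was Klf4 itself and the lower gene was Prdm1.

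**Figure D4:**
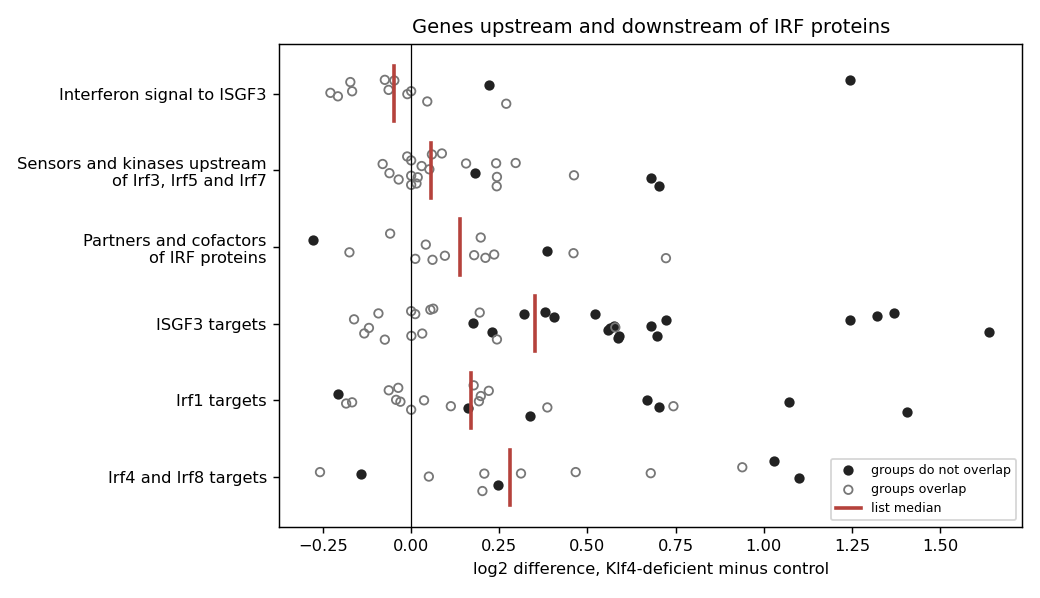
Log2 difference (Klf4-deficient minus control) of each measured gene in 6 lists upstream and downstream of IRF proteins, filled where the groups do not overlap and open elsewhere, with a red bar at the list's median. The ISGF3 targets have a median of 0.35 and 18 of 32 genes with groups apart, all to the right of 0.

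The genes most like each member were taken from the 8360 other genes above background on all 6 arrays, by Pearson correlation of normalized log2 values over the 6 arrays. With 6 points that share their groups and arrays, 77 to 178 genes passed r = 0.9 for each member, so the names are a description only. For Irf9 they were Creld2 (r = 0.999), Ear3 (r = 0.989) and Usp18 (r = 0.988), and for Irf7 they were Cish (r = 0.991), Trim30a (r = 0.990) and Jak3 (r = 0.986). For Irf8 they were Ly86 (r = 0.993), Cd74 (r = 0.991) and Rasal3 (r = 0.991). For Irf1 they were Snrnp27, Tob2 and Mdk (r of 0.986 to 0.995), and for Irf2 P2ry14, Ppm1b and Extl3 (r of 0.980 to 0.992). For Irf3 they were Abcc4, Stxbp2 and Selplg (r of 0.982 to 0.993), and for Irf4 Gfra1, Ythdc1 and Map7 (r of 0.973 to 0.985). Irf5 was not above background on all 6 arrays and was left out.

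Over 20 other ways of processing or choosing the arrays, 0 IRF probes had an adjusted p under 0.05 in limma. The log2 difference of Irf9 probe 1 ran from 0.61 to 0.76 and that of probe 2 from 0.51 to 0.72. Irf7 and Irf8 also stayed above 0, from 0.17 to 0.70 for Irf7 and from 0.12 to 0.60 for Irf8, both lowest with Klf4-deficient array 1 alone.

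**Figure D5:**
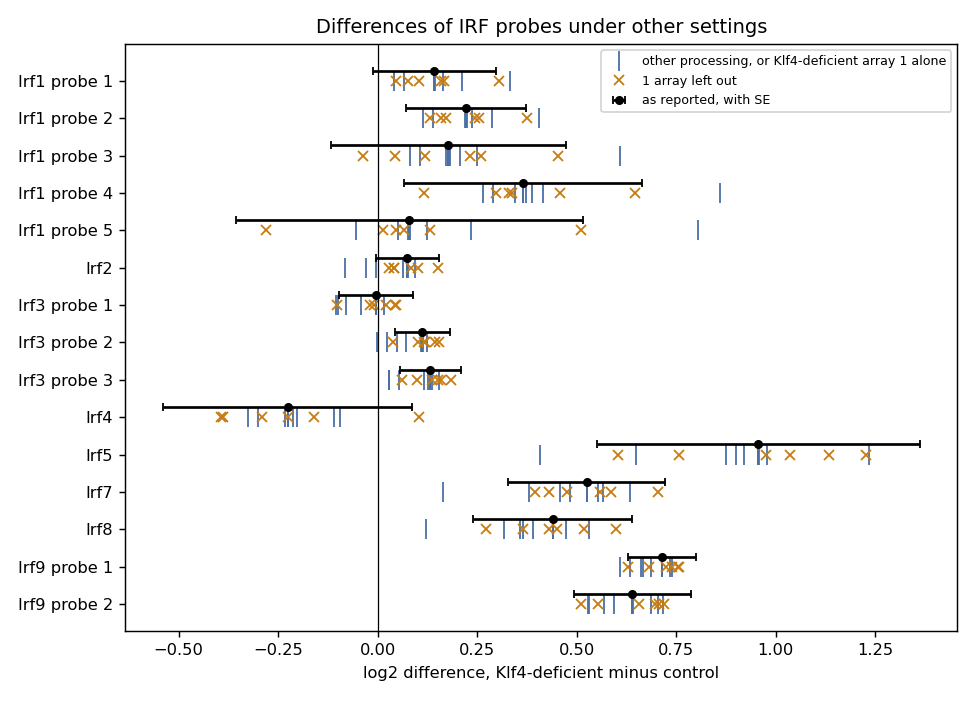
Log2 difference (Klf4-deficient minus control) of each IRF probe as reported (black point with SE), with each array left out in turn (crosses) and under other processing or with Klf4-deficient array 1 alone (blue bars). Both Irf9 probes stay between 0.51 and 0.76 in every setting run, while Irf5 runs from 0.41 to 1.23 and Irf4 crosses 0.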

How the data were processed

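RNA of 6 samples was hybridised to Illumina bead arrays. The deposited values are linear probe intensity from BeadStudio, as the submitters' processing notes name it without a version. Between 31.3% and 34.2% of an array's values lie below 0. How background was subtracted and whether arrays were normalized is not given in the sources used here.

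For the analysis, values below 0 became 0, 16 was added, and quantile normalization followed on the log2 scale. All 45281 probes were fitted in limma 3.58.1 (R 4.3.3) with lmFit and trended eBayes, and p-values were adjusted by Benjamini-Hochberg over all probes, at a threshold of 0.05. Adjusted p-values in the text come from this fit, SE belongs to log2 differences and SD to signals. With 3 arrays a group, the smallest p of an exact permutation test is 0.1, so none was run. No pair of arrays held identical values.

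The platform annotation gave 1 gene symbol to 34885 probes, several to 18 and none here to 10378. Symbols were updated through RefSeq gene IDs. For gene lists, the brightest probe stood for each of 19057 genes, and no set test was run. Up to 4 genes above background in a group were named per list by smallest p, and the 3 most similar genes per member. Other genes are marked as chosen after their values were seen. The members and lists were chosen with earlier results of these data known.

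Simulated arrays of 45281 probes had independent normal noise, with changes only in probes above background on all 6 arrays. On these arrays the fit called 32% of probes changed by 0.7 log2 units, 42% of those changed by 1 and 80% of those changed by 2. It also called 32 unchanged probes, of which 3 were above background on all 6 arrays. Alternatives covered scaling, offset, probe choice, moderation, weights for arrays, a replicate block and each array left out. Klf4-deficient array 1 alone was added after the data were seen. The number of arrays sets the precision.

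The labels give both groups replicate numbers 1 to 3. Deviations of same-numbered arrays from their group means correlated at 0.16, -0.03 and -0.18 over probes above background on all arrays, so the numbers were not taken as pairs.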

Additional observations from a re-analysis of the deposited data

How the results depend on the processing

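In none of the 20 alternatives run did an IRF probe reach an adjusted p under 0.05 in limma, and the cause of the movements below was not tested. Irf9 stayed above 0 in every alternative that gave it a value, with adjusted p from 0.222 to 0.810 for probe 1 (19 alternatives) and from 0.352 to 0.882 for probe 2 (18 alternatives). With the replicate number as a block, 0 of all probes were called, against 1 higher and 1 lower without it, and Irf9 probe 1 had an adjusted p of 0.797.

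The count of IRF probes with the Klf4-deficient arrays all higher was 3 with arrays centred on their median, with 1 probe per gene and with probes averaged per gene (the last 2 over 8 genes, so fewer features), and 2 with no normalization, where 2.95%, 7.49%, 6.55% and 2.44% of all probes or genes above background on all 6 arrays were so. It was 10 for Klf4-deficient array 1 alone (28.4% of such probes) and 5 to 10 with each array left out (10% to 13.1%). The count of probes all lower was 1 with median centring (9.29% of such probes) and with no normalization (12.7%), 2 for Klf4-deficient array 1 alone (27.9%) and 0 to 1 with each array left out (13.8% to 18.3%). Both scalings without quantile normalization moved the median of probes above background to -0.09 and -0.11.

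Differences changed sign for Irf2 with median centring (-0.0044), no normalization (-0.030) and Klf4-deficient array 1 alone (-0.081), for Irf3 probe 1 with cyclic loess (0.017), for Irf3 probe 2 with no normalization (-0.0022) and for Irf1 probe 5 with an offset of 1 (-0.053). With each array left out, the differences ran from -0.037 to 0.45 for Irf1 probe 3, from -0.28 to 0.51 for Irf1 probe 5, from -0.10 to 0.047 for Irf3 probe 1 and from -0.39 to 0.11 for Irf4.

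The median of the ISGF3 targets was 0.28 with median centring, 0.26 with no normalization, 0.28 with an offset of 50, 0.46 over probes above background, 0.27 over mean probes, 0.21 for Klf4-deficient array 1 alone and 0.26 to 0.38 with each array left out. That of the IRF partners was 0.077 with median centring, 0.052 with no normalization, 0.070 with an offset of 50, 0.061 over probes above background, 0.028 for Klf4-deficient array 1 alone and 0.078 to 0.17 with each array left out. That of the sensors was 0.025 with median centring, 0 with no normalization, 0.12 over probes above background, 0.027 with array weights and 0.022 to 0.14 with each array left out. That of the Irf1 targets was 0.088 with median centring, 0.062 with no normalization and 0.018 for Klf4-deficient array 1 alone. That of the Irf4 and Irf8 targets was 0.62 with an offset of 1, 0.012 for Klf4-deficient array 1 alone and 0.12 to 0.38 with each array left out. It lay above that of the ISGF3 targets with an offset of 1 (0.62 and 0.41), over probes above background (0.467 and 0.463) and without Klf4-deficient array 1 or 2 or control array 1. The signals of Irf5, Irf7 and Irf8 were at most 127 units against a background limit of up to 23.7, and Irf5 was under it on 1 array.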
